A study of Mus musculus with 15 samples.

Results

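The 10 genes described here are wound and barrier-alarm genes of keratinocytes: Krt6a, Krt6b, Krt16, Krt17, S100a8, S100a9, Il1a, Il1b, Il1rn and Lcn2. They were taken by gene symbol from the deposited tables, and all 10 were found among the 23420 mouse genes listed. RNA-seq had been run on 4 groups of newborn mice at postnatal day 1. Knockout (KO) epidermis with 4 libraries and knockout tongue with 4 libraries came from mice labelled Tmprss11a,b,c,d,e,f,g-/-, which lack the 7 HAT/DESC proteases, a family of membrane-anchored serine proteases of surface epithelia. Wild-type (WT) epidermis with 3 libraries and wild-type tongue with 4 libraries were the counterparts, and all groups carry the same strain label, which names the targeted genes and no background strain; no treatment is labelled. Epidermis had been peeled from dermis by hand after heating in EDTA, while the tongue entered whole, with its muscle and connective tissue. By the A-numbers in the labels the libraries came from 9 animals, and all 4 knockout animals gave both tissues. By their first digits these numbers form 3 sets, called A32x, A34x and A38x here, and the labels do not say whether a set is a litter or a batch.

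The libraries held 10117819 to 17819195 counted reads. Levels are given as CPM, read counts scaled to library size, on 1 scale for all 15 libraries. The targeted genes were not silent in knockouts at the RNA level: the 6 that were analysed summed to 171 ± 59.1 CPM in knockout epidermis (n = 4) and 266 ± 39.1 CPM in wild-type epidermis (n = 3). The sum overlapped and was mostly Tmprss11f, at 97.9 to 225 CPM in knockout epidermis and 219 to 292 CPM in wild-type epidermis. Tmprss11b did not overlap, at 0.332 to 1.15 CPM in knockout epidermis and 3.54 to 3.69 CPM in wild-type epidermis, and neither did Tmprss11d and Tmprss11e, both lower in knockouts, while Tmprss11a and Tmprss11g overlapped. In tongue they summed to 141 ± 7.20 CPM in knockouts and 369.8 ± 16.01 CPM in wild types (SD, n = 4 each), without overlap. Whether the remaining reads lie outside the deleted parts was not tested. Marker genes followed the tissue labels. Suprabasal keratin and cornified envelope markers summed to 25947 to 50991 CPM in epidermis and 101 to 220 CPM in tongue, and skeletal muscle markers to 89.3 to 710 CPM in epidermis and 28724 to 51286 CPM in tongue. Epidermis library WT 1 differed from the rest, with 44.6% of its reads on the mitochondrial ribosomal RNA genes against 20.1% to 23.8% in the other 6. Among tongues KO 3 differed most, being the highest of 8 for 3784 of 15741 genes and the lowest for 26.7%.

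Keratins are the intermediate filament proteins of epithelial cells and work as pairs of a type II and a type I protein. Resting epidermis between hair follicles makes little keratin 6, 16 or 17, and wounding, barrier loss and inflammation switch them on within keratinocytes, which has made them the standard markers of stressed skin. In oral epithelium and in the hair follicle the same keratins are made without injury. S100a8 and S100a9 form calprotectin, a metal-binding alarm protein of neutrophils and stressed keratinocytes. Interleukin 1 alpha is stored in keratinocytes and released on damage, interleukin 1 beta needs cleavage after it is made, and the product of Il1rn blocks the receptor of both. Lipocalin-2, from Lcn2, withholds iron from bacteria by binding their siderophores.

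Krt6a and Krt6b encode the type II stress keratins and lie 9.62 kb apart on the minus strand of mouse chromosome 15 (GRCm38, Krt6a at chr15:101689910-101694307 and Krt6b at chr15:101676023-101680287, GENCODE M21). Their coding sequences were 97.8% identical, with 37 differences in 1662 aligned bases and a longest identical stretch of 280 bases. Reads of 37 bases from both ends of a fragment therefore cannot always tell these genes apart: 44.0% of the 37-base words of Krt6a transcripts also occur in Krt6b, and 48.3% of those of Krt6b occur in Krt6a. How the authors counted such reads is not given. The stretch where the coding sequences differ most, coding bases 817 to 876, is shown to make visible what a read must cover to be assigned. Capitals mark the 10 bases that differ.
Krt6a: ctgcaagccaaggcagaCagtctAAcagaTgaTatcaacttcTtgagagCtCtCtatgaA
Krt6b: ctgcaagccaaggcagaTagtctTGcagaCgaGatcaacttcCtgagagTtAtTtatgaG

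Krt6a was highest in tongue. It stood at 114, 369.8, 70.2 and 21.6 CPM in knockout epidermis (KO 1 to KO 4) and at 71.7, 103 and 84.8 CPM in wild-type epidermis (WT 1 to WT 3). In tongue it stood at 859, 1096, 688 and 799 CPM in knockouts and at 879, 773, 851 and 1116 CPM in wild types. Every tongue library lay above every epidermis library. Within epidermis the knockout libraries lay both above and below all 3 wild types, with KO 2 highest and KO 4 lowest.

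Krt6b spread widely and did not separate the tissues. It measured 139, 575, 63.3 and 28.5 CPM in knockout epidermis against 136, 205 and 162 CPM in wild-type epidermis. In tongue it measured 88.3, 179, 65.3 and 81.5 CPM in knockouts against 96.0, 75.9, 140 and 171 CPM in wild types. KO 2 was again the highest epidermis library and KO 4 the lowest, and the tissues overlapped.

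Krt16 and Krt17 encode type I stress keratins and lie 7.31 kb apart on the minus strand of chromosome 11 (chr11:100246091-100248902 and chr11:100256217-100261029). Krt16, the usual partner of keratin 6, measured 271, 671, 318 and 234 CPM in knockout epidermis and 229, 467 and 477 CPM in wild-type epidermis. It measured 150.0, 206, 152 and 174 CPM in knockout tongue and 184, 151, 178 and 204 CPM in wild-type tongue. Every epidermis library lay above every tongue library. Of the 37-base words of Krt16, 46.7% also occur in other genes, most of them in Gm11597, so its level carries the same doubt as those of the keratin 6 genes.

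Krt17, which is also a keratin of the hair follicle, measured 420.4, 669.6, 238 and 183 CPM in knockout epidermis and 175, 467 and 329.8 CPM in wild-type epidermis. In tongue it measured 111, 157, 147 and 107 CPM in knockouts and 108, 130.2, 119 and 167 CPM in wild types. Of its 37-base words 11.2% were shared, mostly with Krt14. Hair follicle markers summed to 73.1 to 761 CPM in knockout epidermis, with KO 1 highest, and to 51.2 to 260 CPM in wild-type epidermis. KO 4 and WT 1, the lowest library of each group for these markers, were also the lowest of each group for Krt17. The highest libraries differed, being KO 1 and WT 3 for these markers and KO 2 and WT 2 for Krt17. The part of follicle cells in the Krt17 level was not tested.

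**Figure D1:**
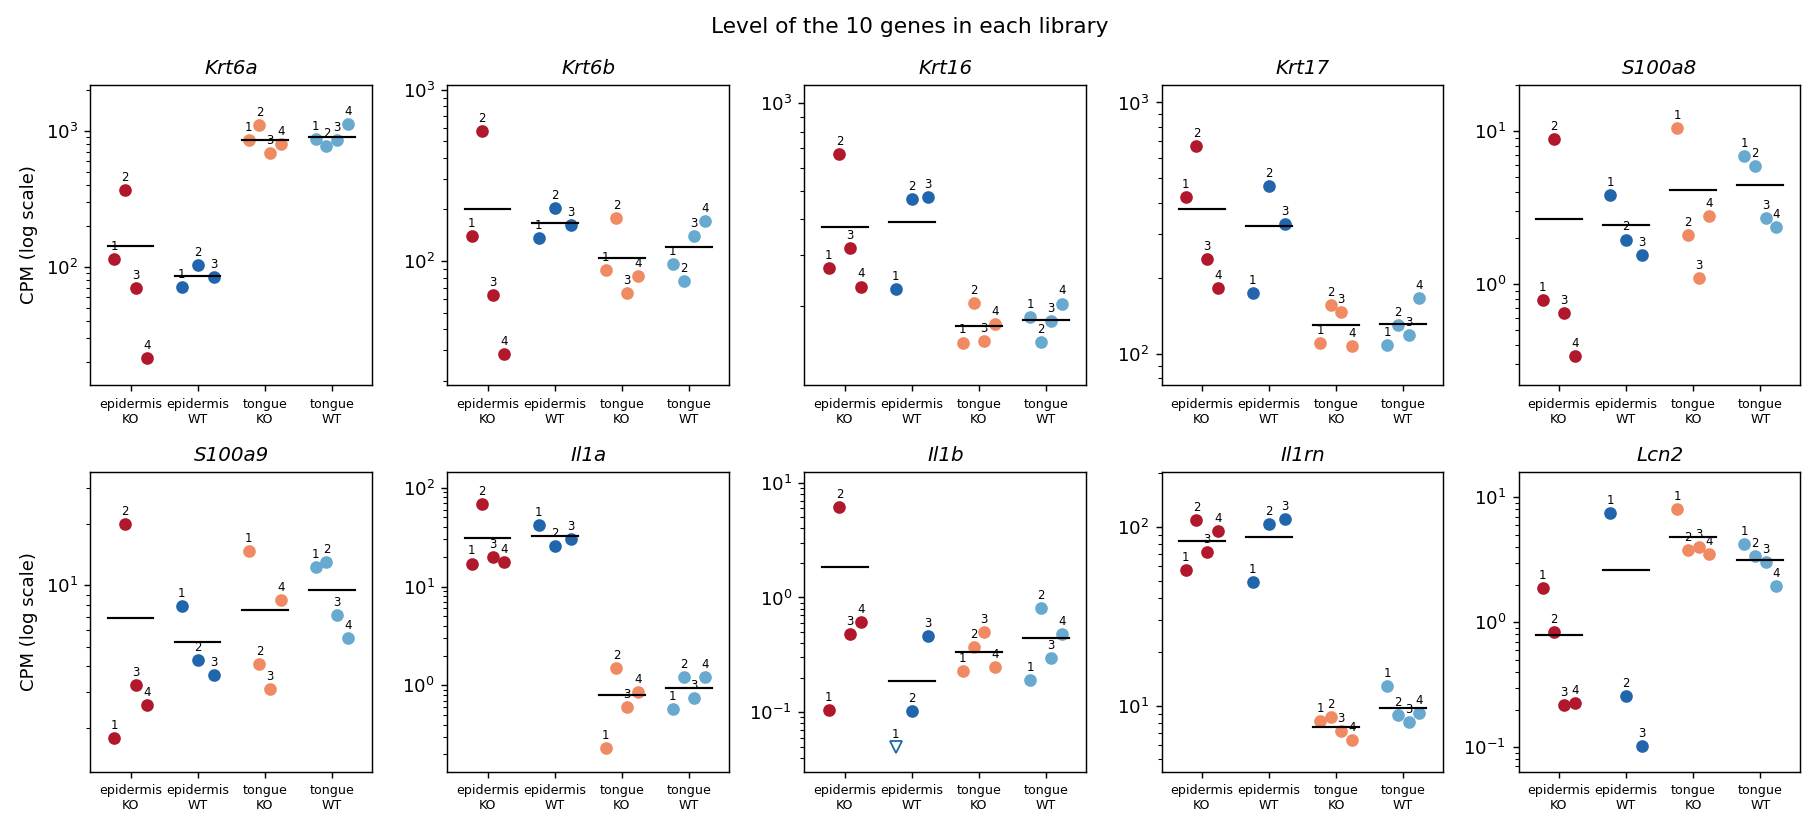
Level of each of the 10 genes in every library, in CPM on a log axis; points are libraries labelled by replicate number, bars are group means, and the open triangle marks a count of 0. Krt6a sits highest in tongue, Krt16, Krt17, Il1a and Il1rn sit highest in epidermis, and epidermis KO 2 is the highest epidermis library in 8 of the 10 panels.

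S100a8 and S100a9 encode the subunits of calprotectin and lie 22.6 kb apart on opposite strands of chromosome 3 (chr3:90668978-90670035 and chr3:90692632-90695721). Both were expressed at a low level. S100a8 measured 0.787, 8.79, 0.646 and 0.336 CPM in knockout epidermis and 3.83, 1.95 and 1.54 CPM in wild-type epidermis, and 10.5, 2.09, 1.10 and 2.77 CPM in knockout tongue against 6.90, 5.90, 2.69 and 2.34 CPM in wild-type tongue. S100a9 measured 1.78, 20.0, 3.23 and 2.58 CPM in knockout epidermis and 7.88, 4.31 and 3.64 CPM in wild-type epidermis. It measured 14.8, 4.10, 3.09 and 8.48 CPM in knockout tongue and 12.4, 13.02, 7.17 and 5.49 CPM in wild-type tongue. In epidermis 3 knockout libraries lay below all 3 wild types for both subunits while KO 2 lay above them, and in tongue the genotypes overlapped.

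The neutrophil is the other usual source of these subunits. Its 11 listed markers found in the tables summed to 1.96 to 4.40 CPM in knockout epidermis and 1.23 to 1.49 CPM in wild-type epidermis, and to 4.93 to 15.1 CPM in knockout tongue and 3.66 to 10.2 CPM in wild-type tongue. Of these 11 markers, 1 was at 0 throughout in each tissue, Mpo in all 7 epidermis libraries and Ly6g in all 8 tongue libraries. All the others had reads in at least 1 library of the tissue. The highest sums were those of KO 2 among epidermis libraries and KO 1 among tongues, the same libraries that were highest for S100a8 and S100a9. The part of neutrophils in these levels was not tested.

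Il1a and Il1b encode the interleukin 1 agonists and lie 54.6 kb apart on the minus strand of chromosome 2 (chr2:129299610-129309972 and chr2:129364570-129371139). Their promoters are shown because these neighbours, both read from the same strand, differed in level in epidermis: Il1a averaged 15.6 and Il1b 0.963 CPM per kilobase of exon in knockouts, and 16.6 and 0.0987 CPM per kilobase in wild types. The 250 bases before the transcription start (RefSeq, GRCm38.p6, minus strand, chr2:129309973-129310222 for Il1a and chr2:129371140-129371389 for Il1b) follow, with the matches to searched motifs in capitals.
Il1a: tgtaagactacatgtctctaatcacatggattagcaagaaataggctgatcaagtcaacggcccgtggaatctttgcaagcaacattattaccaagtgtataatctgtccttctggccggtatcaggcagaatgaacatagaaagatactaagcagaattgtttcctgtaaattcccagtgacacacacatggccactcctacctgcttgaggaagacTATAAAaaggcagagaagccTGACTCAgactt
Il1b: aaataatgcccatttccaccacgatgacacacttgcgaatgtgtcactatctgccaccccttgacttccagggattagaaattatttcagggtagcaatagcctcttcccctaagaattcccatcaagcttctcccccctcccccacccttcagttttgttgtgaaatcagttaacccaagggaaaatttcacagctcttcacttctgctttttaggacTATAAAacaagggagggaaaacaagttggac

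The motifs searched on both strands were TATAAA, the AP-1 motif TGANTCA, the C/EBP motif TTGCNNAA and the kappaB motif. Both promoters hold TATAAA, at 32 to 27 bases before the start in Il1a and 31 to 26 bases before it in Il1b, and only the Il1a window holds an AP-1 match, at 12 to 6 bases before the start. Over 32851 promoters of the same length 12.4% held TATAAA, 6.75% the AP-1 motif, 9.56% the C/EBP motif and 3.90% the kappaB motif. Promoters were at hand for 6 of the 10 genes, and the keratins were not among them. The AP-1 motif also occurred in 1 of the 3 Il1rn promoters, TATAAA in that of S100a8, and the C/EBP motif in those of S100a9 and Lcn2. These are matches of letters and say nothing about binding.

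Il1a was highest in epidermis. It measured 17.1, 68.4, 20.0 and 17.8 CPM in knockout epidermis and 42.2, 26.0 and 30.0 CPM in wild-type epidermis. In tongue it measured 0.230, 1.49, 0.597 and 0.860 CPM in knockouts and 0.575, 1.21, 0.747 and 1.21 CPM in wild types. In epidermis the 3 knockout libraries other than KO 2 lay below every wild-type library.

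Il1b was near the limit of detection. It measured 0.105, 6.14, 0.485 and 0.616 CPM in knockout epidermis, and 0, 0.103 and 0.462 CPM in wild-type epidermis. The 74 reads of KO 2 stood against 2, 9 and 11 in the other knockouts and 0, 2 and 9 in the wild types. The 0 in WT 1 allows up to 0.297 CPM, counting error only. In tongue Il1b ran from 0.230 to 0.498 CPM in knockouts and from 0.192 to 0.809 CPM in wild types, on 2 to 10 reads.

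Il1rn encodes the receptor antagonist and lies elsewhere on chromosome 2, on the plus strand (chr2:24336853-24351494). It measured 57.6, 109, 72.3 and 94.4 CPM in knockout epidermis against 49.4, 103 and 110.2 CPM in wild-type epidermis. In tongue it measured 8.22, 8.66, 7.17 and 6.39 CPM in knockouts against 12.8, 8.82, 8.14 and 9.05 CPM in wild types. Reads of Il1rn exceeded those of Il1a in all 15 libraries, but Il1rn has 5.54 kb of exon and Il1a 1.97 kb. These lengths join all annotated exons, from 6 transcripts for Il1rn and 1 for Il1a. Which transcripts were expressed was not determined, so values per kilobase may be too low for Il1rn. Per kilobase the epidermis means were close, 15.1 CPM for Il1rn and 15.6 CPM for Il1a in knockouts, and 15.8 and 16.6 CPM in wild types. In tongue Il1rn stayed higher per kilobase, at 1.37 against 0.403 CPM in knockouts and 1.75 against 0.475 CPM in wild types. The ratio of Il1rn to Il1a reads was 1.598 to 5.30 in knockout epidermis and 1.17 to 3.98 in wild-type epidermis, and 5.80 to 35.7 in knockout tongue and 7.27 to 22.3 in wild-type tongue, so genotypes overlapped and every tongue library lay above every epidermis library.

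Lcn2 lies on the minus strand of chromosome 2 (chr2:32384633-32388252). It measured 1.89, 0.830, 0.215 and 0.224 CPM in knockout epidermis and 7.54, 0.257 and 0.103 CPM in wild-type epidermis, where WT 1 held most of the wild-type mean of 2.63 CPM. It measured 8.07, 3.81, 3.98 and 3.50 CPM in knockout tongue and 4.21, 3.40, 3.06 and 1.94 CPM in wild-type tongue. The highest tongue library of each genotype was its A32x library, number 1. Ager and Lrp2, which encode receptors of S100 proteins and lipocalin-2, were also highest in these A32x tongues, at 35.1 and 13.3 CPM in KO 1 and 27.2 and 11.2 CPM in WT 1 against at most 9.38 and 2.67 CPM in the other 6. Both were picked from 6 listed receptor genes after their values were seen. The sum of all 6 was highest in tongue KO 2, at 772 CPM, against 687 CPM in KO 1 and 682 CPM in WT 1, the highest wild type.

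Per kilobase of exon the order of the mean levels differed between the tissues. The length joins the exons of all annotated transcripts, which can lower the place of genes with many transcripts, such as Il1rn and Lcn2. In wild-type epidermis Krt16 led with 250 ± 89.6 CPM per kilobase, followed by Krt17 with 209 ± 94.2, Krt6b with 75.0 ± 15.5, Krt6a with 35.8 ± 6.61 and Il1a with 16.6 ± 4.28 (SD, n = 3). Il1rn followed with 15.8 ± 6.02, S100a9 with 10.1 ± 4.36, S100a8 with 3.51 ± 1.76, Lcn2 with 1.004 ± 1.62 and Il1b with 0.0987 ± 0.127 CPM per kilobase. Krt16 and Krt17 did not differ beyond their spread, nor did Il1a and Il1rn. In wild-type tongue Krt6a led with 374 ± 61.1 CPM per kilobase, against 115 ± 14.1 for Krt16, 84.6 ± 16.5 for Krt17 and 54.0 ± 19.1 for Krt6b (SD, n = 4). The other 6 genes there lay between 0.234 ± 0.142 for Il1b and 18.2 ± 7.17 for S100a9. In knockout epidermis Krt17 and Krt16 led with 243 ± 142 and 239 ± 129 CPM per kilobase, and in knockout tongue Krt6a led with 356 ± 71.3 (SD, n = 4 each).

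The first comparison asked whether the loss of the proteases changed these genes in epidermis. None of the 9 genes that could be tested changed, and Il1b had too few reads in most libraries to pass the count filter. The log2 fold changes of knockout over wild type ran from -1.67 for Lcn2 to 0.68 for Krt6a with a median of 0.05, where the median of all 16073 genes tested was 0.00. The test (edgeR, quasi-likelihood F test, Benjamini-Hochberg over all genes tested) gave an adjusted p of 0.9998 for each of the 9, and 0 of 16073 genes (0.0%) passed, with 187 genes (1.16%) at an unadjusted p under 0.05. DESeq2 called 1 gene and limma-voom 0, and neither called any of the 9. The groups did not overlap in level for 2.2% of all genes and for 0 of the 10 genes. A p that misses the threshold does not show equal levels, and the 95% intervals were wide.

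For the stress keratins of epidermis the intervals of the log2 fold change were -1.39 to 2.76 for Krt6a (0.68, SE 0.86), -2.16 to 2.59 for Krt6b (0.22, SE 0.98), -0.99 to 0.79 for Krt16 (-0.10, SE 0.40) and -0.86 to 1.23 for Krt17 (0.18, SE 0.46). S100a8 stood at 0.05 (SE 1.08) and S100a9 at 0.34 (SE 0.84), with intervals of -2.44 to 2.55 and -1.59 to 2.26. Il1a stood at -0.13 (SE 0.50, interval -1.26 to 1.006) and Il1rn at -0.10 (SE 0.31, interval -0.79 to 0.59). The interval of Il1rn was the narrowest of the 9, and that of Lcn2, -5.10 to 1.75, the widest.

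In tongue the same question gave narrower intervals and again no change. Of the 9 genes tested 0 passed, against 2 of 15741 genes (0.0127%; 496 genes, 3.15%, at an unadjusted p under 0.05, 4 called by DESeq2 and 2 by limma-voom), and groups overlapped for all 10 genes where 2.29% of all genes did not overlap. Krt6a stood at a log2 fold change of -0.07 (SE 0.16, interval -0.41 to 0.27), Krt16 at -0.07 (SE 0.13, interval -0.35 to 0.20) and Krt17 at -0.01 (SE 0.16, interval -0.35 to 0.34). Scaled to basal keratin reads, a setting that raised the median of all genes by 0.19, these 3 keratins lay slightly above 0 instead, still without a call. The other values were -0.22 for Krt6b (SE 0.35), -0.09 for S100a8 (SE 0.66), -0.31 for S100a9 (SE 0.48) and -0.22 for Il1a (SE 0.47). Il1rn at -0.35 (SE 0.18) and Lcn2 at 0.62 (SE 0.31) had the smallest unadjusted p of the 9, 0.0792 and 0.0714, and an edgeR adjusted p of 0.939 each. The difference of the knockout effects between the tissues was tested directly over 17935 genes, 0 of which passed (0.0%; 299, 1.67%, at an unadjusted p under 0.05, 1 called by DESeq2 and 0 by limma-voom). Among the 9 genes this difference, epidermis minus tongue, ran from -2.24 for Lcn2 (SE 1.39) to 0.80 for Krt6a (SE 0.82).

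**Figure D2:**
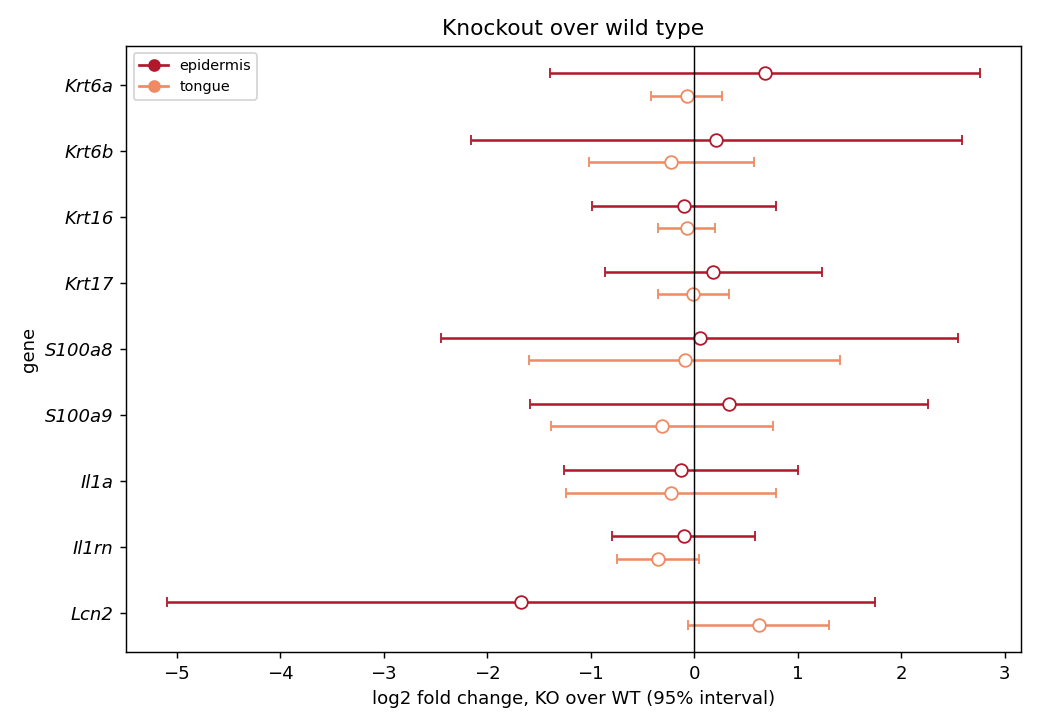
Log2 fold change of knockout over wild type for the 9 genes tested, with 95% intervals, in epidermis (upper of each pair) and tongue; open circles did not pass the threshold. All 18 intervals include 0, and those of epidermis are wider than those of tongue for every gene.

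A single library set much of what the epidermis means showed. Epidermis KO 2 was the highest of the 7 epidermis libraries for 8 of the 10 genes, where it was the highest for 20.5% of all genes tested. Il1b is among the 8, though the shares of all genes here cover only genes that passed the count filter. Its level was over 2 times the median of the other 6 libraries for 9 of the 10 genes, against 5.84% of all genes, and the median of this ratio was 3.81 over the 10 genes and 1.04 over all genes. The ratio reached 4.73 for Krt6a, 4.17 for Krt6b, 7.56 for S100a8, 5.82 for S100a9, 2.98 for Il1a and 21.7 for Il1b. It was 2.28 for Krt16 and 2.36 for Krt17, and least, 1.31, for Il1rn. The 2 genes for which KO 2 was not the highest were Il1rn and Lcn2.

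Some other genes of the pathway were also high in KO 2, and others were not. All 7 IL-1 family relatives had their highest epidermis level there, such as Il18, whose product is activated by the inflammasome, at 318 CPM in KO 2 against 98.0 to 162 CPM in the other knockouts and 146 to 171 CPM in wild types. Il33, an alarmin of the same family, stood at 11.8 CPM in KO 2 against 1.57 to 1.91 CPM in the other knockouts and 3.34 to 4.26 CPM in wild types. The chemokine gene Cxcl2 was at 2.07 CPM in KO 2 and at most 0.215 CPM in the others, while Il6 was at 0 in all 7 epidermis libraries. Of the 15 response genes of NF-kB and IL-1 with reads in epidermis, 7 were highest in KO 2. So were 11 of 21 other barrier-alarm and antimicrobial genes and 5 of 11 inflammasome and processing genes. Receptors of calprotectin and lipocalin-2 were highest there for 4 of 6 genes. Of 18 receptor and signalling genes 5 were highest there, and of 10 other S100 genes 1. These counts include genes with too few reads to be tested, while the 20.5% covers only the 16073 genes that passed the count filter.

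Markers of other tissue moved with KO 2 as well. Skeletal muscle markers summed to 710 CPM in KO 2, against 89.3 to 205 CPM in the other knockouts and 97.5 to 254 CPM in wild types, and all 8 were highest there. That sum was 1.44% of the 49466 CPM in the tongue of the same animal, against 0.648%, 0.375% and 0.180% in KO 1, KO 3 and KO 4. Tongue epithelium markers summed to 501 CPM in KO 2, against 364 to 382 CPM in the other knockouts and 314 to 374 CPM in wild types. Most of that sum was Krt78, at 399 CPM in KO 2, but all 7 of these markers were highest in KO 2 and 6 were over 2 times the median of the other libraries. Basal keratinocyte markers were the highest in KO 2 for 1 of 6 genes, and hair follicle markers for 0 of 12. The part of admixed tissue in the high levels of KO 2 was not tested. KO 2 was the only A34x library of epidermis, so the animal, the library and the A-number range cannot be told apart.

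In the tongue of the same animal, KO 2, the keratins were also the highest of the 4 knockout tongues, at 1096 CPM for Krt6a, 179 CPM for Krt6b, 206 CPM for Krt16 and 157 CPM for Krt17. Il1a and Il1rn were the highest as well, at 1.49 and 8.66 CPM. S100a8 and S100a9 were not, at 2.09 and 4.10 CPM, below KO 1 and KO 4 for both.

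**Figure D3:**
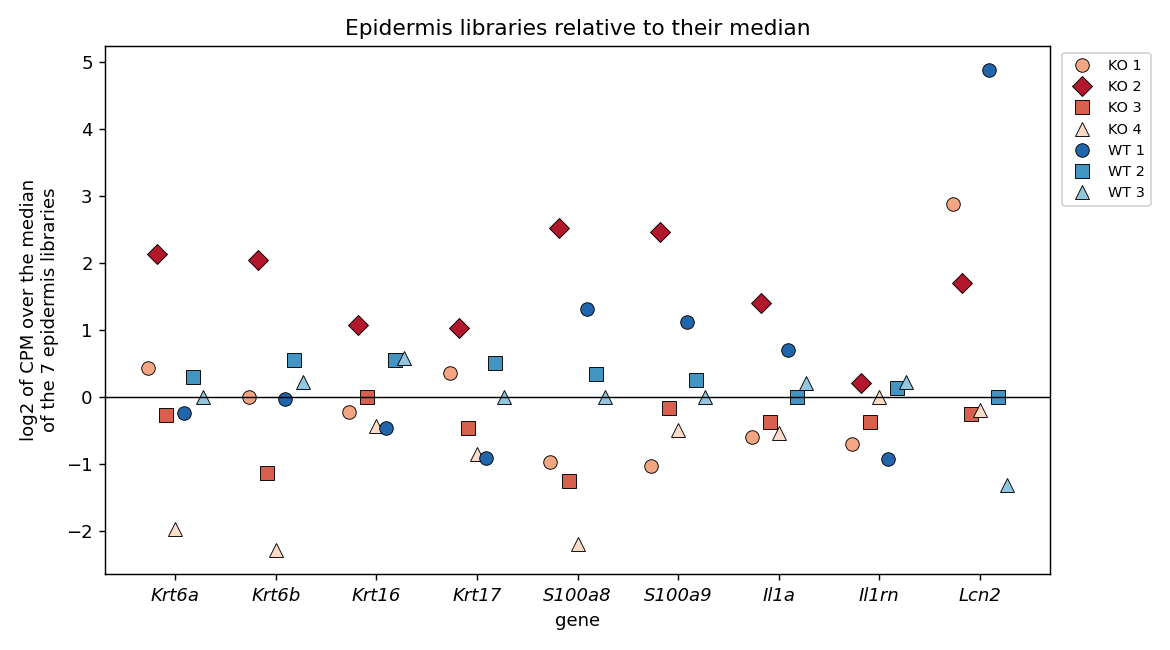
Level of 9 genes in each of the 7 epidermis libraries relative to their median, as log2 of the CPM ratio; red tones are knockout and blue tones wild-type libraries (Il1b is left out because it has a count of 0). KO 2, the dark red diamond, is the highest point for 7 of these 9 genes, and WT 1 is the highest for Lcn2.

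Without KO 2 the log2 fold changes of epidermis lay below 0 for all 8 genes that could still be tested, Lcn2 then failing the count filter. KO 2 was the highest epidermis library for 8 of the 10 genes, so leaving it out was bound to lower most of these values. The share of all genes below 0 in that fit was not computed. Krt6a stood at -0.35, Krt6b at -1.13, Krt17 at -0.22, S100a8 at -2.02 and S100a9 at -1.06, all of them above 0 with KO 2, and Krt16 at -0.52, Il1a at -0.85 and Il1rn at -0.24. None passed (edgeR adjusted p = 0.9984 for each of these), with 416 genes at an unadjusted p under 0.05 and 0 called. Leaving out WT 1 instead turned Lcn2 to 2.06, with no call.

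Within the A38x range, which holds 2 knockout and 2 wild-type epidermis libraries, Krt16, Krt17 and S100a8 fell. Krt16 had a log2 fold change of -0.78 (edgeR adjusted p = 0.0156), Krt17 of -0.93 (adjusted p = 0.0213) and S100a8 of -1.81 (adjusted p = 0.0404). These are 3 of the 8 genes tested there, where 604 of 15760 genes (3.83%) passed, 230 (1.46%) lower and 374 (2.37%) higher. The other 5 were also below 0, at -1.04 for Krt6a, -1.999 for Krt6b, -0.46 for S100a9, -0.57 for Il1a and -0.36 for Il1rn, without a call. Hair follicle markers in these libraries were 194 and 73.1 CPM in the knockouts and 207 and 260 CPM in the wild types. The fit over all 7 libraries did not give these calls, and A32x, with 1 library of each genotype, gives values only: Krt16 was at 271 CPM in KO 1 and 229 CPM in WT 1, Krt17 at 420.4 and 175 CPM, and S100a8 at 0.787 and 3.83 CPM. In A38x tongues, 2 of each genotype, 0 of the 9 genes passed, where 15 of 15975 genes (0.0939%) did.

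The balance of Krt6b to Krt6a was the only ratio among the 9 genes other than Il1b that separated the genotypes in epidermis. It was 1.22, 1.55, 0.903 and 1.32 in knockout epidermis and 1.90, 1.98 and 1.91 in wild-type epidermis, with no overlap. The mean was 1.25 ± 0.270 in knockouts (SD, n = 4) and 1.93 ± 0.0423 in wild types (SD, n = 3), and it does not depend on how libraries are scaled. With no overlap, the ratio was by necessity lower in KO 2 and in the knockouts of both ranges that hold both genotypes. These orders add no evidence. A two-sided exact permutation test gave p = 0.0571, the smallest that 4 against 3 libraries allow, and 0.971 after adjustment over all 72 ratios computed in the 2 tissues. The ratio was chosen after its values were seen, 1 of 36 ratios (2.78%) separated the genotypes in each tissue, and reads shared between the genes enter both counts.

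In tongue Krt6b was the lesser gene of the pair, with a ratio of 0.103, 0.163, 0.0950 and 0.102 in knockouts and 0.109, 0.0982, 0.164 and 0.153 in wild types, and the genotypes overlapped. The ratio that did not overlap in tongue was that of Lcn2 to Il1rn, 0.440 to 0.981 in knockouts and 0.214 to 0.385 in wild types (exact permutation p = 0.0286, the smallest for 4 against 4, and 0.971 after adjustment). It too was chosen after its values were seen.

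**Figure D4:**
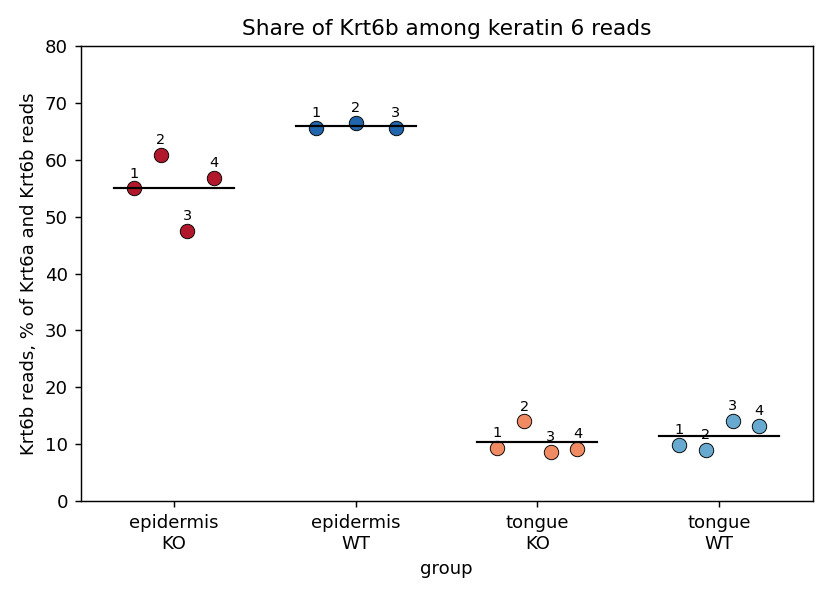
Krt6b reads as a percentage of Krt6a and Krt6b reads in each library, by group, with the group mean as a bar and the replicate number at each point. Knockout epidermis lies at 47.4% to 60.9%, below wild-type epidermis at 65.5% to 66.4%, and all tongue libraries lie at 8.68% to 14.1%.

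The tissues were then compared within each genotype. In wild types Krt6a was lower in epidermis than in tongue and Krt16, Krt17, Il1a and Il1rn were higher, while Krt6b, S100a8, S100a9 and Lcn2 did not pass. In knockouts the same 5 genes passed in the same directions and Lcn2 was lower in epidermis as well. The 5 of 9 called in wild types stand against 63.6% of all 16577 genes, and the 6 of 9 in knockouts against 63.8% of 16398 genes, so the share of these genes that differed was near that of genes at large. In bulk tissue, fewer cells of a type and less RNA per cell cannot be told apart, and tongue holds muscle and connective tissue that the peeled epidermis largely lacks.

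Il1a had the widest gap of the 9. It averaged 30.8 ± 25.1 CPM in knockout epidermis and 0.795 ± 0.532 CPM in knockout tongue, and 32.7 ± 8.45 CPM in wild-type epidermis and 0.937 ± 0.326 CPM in wild-type tongue. The log2 fold change was 5.24 in knockouts (SE 0.61, edgeR adjusted p = 2.57e-05) and 5.12 in wild types (SE 0.29, adjusted p = 7.09e-07). Il1rn followed with 3.47 in knockouts (SE 0.22, adjusted p = 1.002e-07) and 3.20 in wild types (SE 0.28, adjusted p = 1.13e-05).

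Among the keratins, Krt6a had a log2 fold change of -2.58 in knockouts (SE 0.68, edgeR adjusted p = 0.00694) and -3.36 in wild types (SE 0.23, adjusted p = 2.37e-06). Krt16 stood at 1.15 in knockouts (SE 0.29, adjusted p = 0.00451) and 1.14 in wild types (SE 0.25, adjusted p = 0.00315), and Krt17 at 1.55 (SE 0.35, adjusted p = 0.00231) and 1.32 (SE 0.30, adjusted p = 0.00354). Krt6b, at 0.95 in knockouts (SE 0.83) and 0.50 in wild types (SE 0.27), overlapped between tissues. Counted as 1 gene, Krt6a and Krt6b were lower in epidermis by a log2 fold change of -1.49 in knockouts, which did not pass (adjusted p = 0.0866), and -1.99 in wild types, which passed (adjusted p = 6.58e-05).

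S100a8 and S100a9 stood at -0.73 and -0.18 in knockouts and at -0.88 and -0.85 in wild types, without a call. Scaled to basal keratin counts, where nearly all called genes are lower in epidermis, both passed: S100a8 at -3.93 in knockouts and -3.49 in wild types, and S100a9 at -3.40 and -3.46 (largest edgeR adjusted p = 0.0190). Within A38x, S100a8 passed in knockouts at -2.04 (adjusted p = 0.0128) and S100a9 in wild types at -0.69 (adjusted p = 0.0179). Lcn2 averaged 0.789 ± 0.787 CPM in knockout epidermis and 4.84 ± 2.16 CPM in knockout tongue, a log2 fold change of -2.57 (SE 0.60, edgeR adjusted p = 0.00274). In wild types it stood at -0.34 (SE 1.10, adjusted p = 0.801), and without WT 1 it passed at -4.05 (adjusted p = 4.27e-06), as it did within A38x at -3.76 (adjusted p = 5.78e-06) and with limma-voom at -2.66 (adjusted p = 0.0362). S100a8 at -1.32 (adjusted p = 0.0212) and S100a9 at -1.24 (adjusted p = 0.00756) also passed without WT 1, which brought the wild-type count to 8 of 9. With the animal as a block in wild types, where 2 of 5 animals gave both tissues and 1 residual degree of freedom is left, Lcn2 stood at -3.73 (edgeR adjusted p = 2.13e-12) and S100a9 at -0.66 (adjusted p = 0.0240). The animal of WT 1 gave no tongue library. The animal block, A38x alone and leaving out WT 1 thus all rest on epidermis WT 2 and WT 3 and are not separate evidence. Without KO 2 of epidermis, S100a8 at -2.80 (adjusted p = 0.00978) and S100a9 at -1.61 (adjusted p = 0.0192) passed in knockouts. The test of the difference between genotypes was the one given above, and it called none of these genes.

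**Figure D5:**
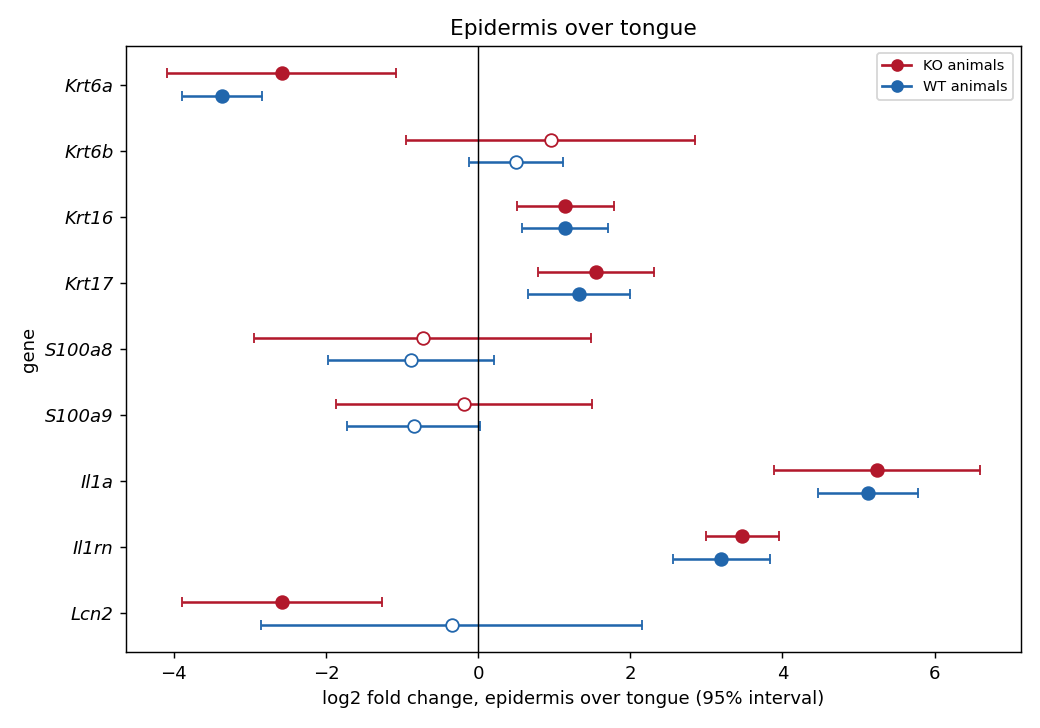
Log2 fold change of epidermis over tongue for the 9 genes tested, with 95% intervals, in knockout (upper of each pair) and wild-type animals; filled circles passed the threshold and open circles did not. Il1a and Il1rn lie farthest to the right, Krt6a lies to the left in both genotypes, and Lcn2 is filled in knockouts only.

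Relative to basal keratinocytes Krt16 and Krt17 changed direction and Krt6a did not. Krt5 and Krt14, the keratins of basal cells, summed to 3939 ± 845 CPM in knockout epidermis and 515 ± 111 CPM in knockout tongue (n = 4 each), and to 3795 ± 1130 CPM in wild-type epidermis (n = 3) and 570 ± 66.7 CPM in wild-type tongue (n = 4). Krt6a reads were 3.20 ± 2.82% of Krt5 and Krt14 reads in knockout epidermis and 171 ± 38.8% in knockout tongue, and 2.34 ± 0.312% in wild-type epidermis and 159 ± 24.2% in wild-type tongue. Krt16 reads were 9.09 ± 2.79% in knockout epidermis and 34.3 ± 9.13% in knockout tongue, and 10.2 ± 2.05% in wild-type epidermis and 31.8 ± 5.27% in wild-type tongue. Krt17 reads were 9.08 ± 3.46% and 25.6 ± 3.20% in knockout epidermis and knockout tongue, and 8.25 ± 1.496% and 22.9 ± 2.56% in wild-type epidermis and wild-type tongue. On this scale Krt16 and Krt17 were thus lower in epidermis. Il1a stayed higher in epidermis, at 0.723 ± 0.408% in knockout epidermis and 0.156 ± 0.0959% in knockout tongue, and at 0.967 ± 0.552% in wild-type epidermis and 0.161 ± 0.0394% in wild-type tongue. The call of Il1rn was lost, with a log2 fold change of 0.51 in knockouts (edgeR adjusted p = 0.109) and 0.40 in wild types (adjusted p = 0.182). The scale moved the median log2 fold change of all genes by -2.97 in knockouts and -2.71 in wild types, and the share of called genes that were higher in epidermis to 2.14% and 2.47%, against 51.2% and 50.4% on the main scale.

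Some of these genes varied together from library to library. Pearson's r of log2(CPM + 1) was computed for 9 pairs in each tissue, 18 relations in all, and 6 passed after adjustment over the 18 (2 by Spearman's rho), with p-values from two-sided permutation tests. S100a8 and S100a9 had r = 0.958 (p = 0.00437, adjusted p = 0.0196) and rho = 0.893 (p = 0.0123, adjusted p = 0.0554) over the 7 epidermis libraries, and r = 0.946 (p = 0.000149, adjusted p = 0.00268) and rho = 0.976 (p = 0.000397, adjusted p = 0.00714) over the 8 tongue libraries. Without the 2 libraries farthest from the median, r was 0.906 in epidermis and 0.951 in tongue.

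Krt6a and Krt6b had r = 0.952 (permutation p = 0.00595, adjusted p = 0.0204) and rho = 0.893 (adjusted p = 0.0554) in epidermis, and r = 0.920 (p = 0.00149, adjusted p = 0.0134) and rho = 0.905 (adjusted p = 0.0411) in tongue. Without the 2 farthest libraries, KO 2 and KO 4 in epidermis, r was 0.619, and it was 0.734 in tongue, and shared reads enter both levels. Krt6a and Krt17 in epidermis had r = 0.855 (permutation adjusted p = 0.0196) and rho = 0.857, which did not pass (adjusted p = 0.0857). Without the 2 farthest r was 0.908, and without KO 2 alone it was 0.731. Krt6a and Krt16 in tongue had r = 0.860 (permutation adjusted p = 0.0204) and rho = 0.714, which did not pass (adjusted p = 0.148). This r rested on the 2 farthest libraries, with r = 0.555 without them. The relation of Il1a and Il1rn did not pass, with r = 0.206 and rho = 0.357 in epidermis (permutation adjusted p = 0.736 and 0.520) and r = -0.0152 and rho = 0.119 in tongue (permutation adjusted p = 0.944 and 0.793). The A38x range holds 4 libraries per tissue, too few for an r within a range.

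The other genes of these pathways, taken from lists chosen with earlier results of these data known, gave no call for genotype either. In epidermis 0 of 7 IL-1 family relatives, 0 of 17 receptor and signalling genes, 0 of 10 inflammasome and processing genes, 0 of 8 response genes, 0 of 18 other barrier-alarm and antimicrobial genes, 0 of 9 other S100 genes and 0 of 5 receptors of calprotectin and lipocalin-2 passed, against 0.0% of all genes. In tongue the counts were 0 of 6, 0 of 17, 0 of 9, 0 of 7, 0 of 17, 0 of 9 and 0 of 6. The 2 most abundant IL-1 relatives of epidermis were Il1f5, the interleukin 36 receptor antagonist, at 580 ± 197 CPM in knockouts and 562 ± 81.9 CPM in wild types, and Il1f9, an interleukin 36 agonist, at 214 ± 89.1 CPM and 179 ± 12.8 CPM. Among response genes, Nfkbia, an inhibitor of NF-kB, stood at 62.9 ± 23.7 CPM in knockout epidermis and 41.3 ± 8.18 CPM in wild-type epidermis, and Nfkbiz at 42.5 ± 15.9 and 25.4 ± 1.07 CPM. The log2 fold change of Nfkbiz was 0.71 (SE 0.29, unadjusted p = 0.0364, edgeR adjusted p = 0.9998).

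Between tissues the IL-1 family went with Il1a. In both genotypes 6 of its 7 relatives were higher in epidermis and 1, Il33, was lower, where 32.7% of all genes were called higher and 31.1% lower in knockouts, and 5307 of 16577 genes were called higher and 31.6% lower in wild types. The list had a median log2 fold change of 4.11 in knockouts and 3.77 in wild types, where the medians over all genes were 0.07 and 0.03. Il1f5 averaged 580 ± 197 CPM in knockout epidermis and 11.8 ± 3.88 CPM in knockout tongue. Receptors of calprotectin and lipocalin-2 went the other way, with 5 of 6 lower in epidermis in knockouts and 4 of 6 in wild types, against the 31.1% and 31.6% of all genes. One of them was Cd36, a fatty acid carrier of muscle and fat, at 5.83 ± 4.21 CPM in knockout epidermis and 340.5 ± 158 CPM in knockout tongue. The antimicrobial genes were split, with 8 higher and 9 lower of 20 in knockouts and 6 higher and 9 lower of 19 in wild types, against 32.7% higher and 31.1% lower of all genes in knockouts and the shares given above in wild types. Gjb2, a gap junction gene, averaged 193 ± 26.4 CPM in knockout epidermis and 77.3 ± 6.80 CPM in knockout tongue. Slpi, a protease inhibitor of mucosal surfaces, averaged 4.50 ± 0.716 CPM in knockout epidermis and 256 ± 29.2 CPM in knockout tongue, and Defb4, a beta-defensin, 0.926 ± 0.634 and 109 ± 25.3 CPM.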

How the data were processed

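RNA from frozen skin and tongue of P1 mice had been read in pairs of 37 bases on a NextSeq500 after SMARTer V4 cDNA synthesis, per the labels' protocols; the epidermis had first been lifted off in warm EDTA. Alignment used STAR 2.5.2a and the mouse build GRCm38.p3, per the submitters' processing notes, where DESeq2, edgeR and limma are also listed. No source used here names the counter, its strand setting, its annotation or its handling of shared reads. The authors' deposited counts, whole numbers of reads for each gene, were the input of every test. Their second deposited table holds signal values, each count scaled by a library-wide constant, and served only for gene symbols and a check of scale.

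Of 23422 entries, 2 transgene entries were left out. Genes passing filterByExpr (minimum count 10) were scaled by TMM and tested with edgeR 4.0.16 (two-sided quasi-likelihood F test, robust, R 4.3.3), with p adjusted by Benjamini-Hochberg across the genes of each fit and called under 0.05. CPM uses TMM factors of all 15 libraries, ± is the SD, and intervals are at 95%. Only the A-numbers mark samples as separate animals, so the p-values speak of the spread among these libraries, which may be technical. Limits of zero counts (3 counts) cover counting error only.

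In epidermis, deviations from group means of libraries sharing a replicate number in KO and WT correlated at 0.591, 0.106 and 0.494. Libraries of different numbers correlated at -0.573 to 0.397. WT 2 correlated more with KO 3 (0.397) and KO 4 (0.316), which share its A-number range, than with KO 2 (0.106), which does not. The numbers mark different animals and cannot be taken to pair the samples, so a block by replicate number served as an alternative only. That replicate block changed no call among the 10 genes. The tissues of an animal are paired by A-number.

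The 10 genes and all 16 lists (159 of 165 genes found) were chosen with earlier results of these data known. The rule for list genes took those called in KO against WT (up to 3 per direction by fold change) or else the 2 with the highest mean CPM, and between tissues up to 2 called genes per direction by mean CPM; a selection of these is printed. Il18, Il33, Cxcl2, Il6, Ager and Lrp2 were named for single libraries after their values were seen. Alternatives were DESeq2 size factors, DESeq2 1.42.0, limma-voom (limma 3.58.1), no filter, each library left out, blocks by number, animal or A-number range, A38x alone, scaling to Krt5 and Krt14 counts, mitochondrial genes left out, 1 fit of all libraries, and Krt6a and Krt6b summed. Chosen after seeing the data were leaving out epidermis WT 1, epidermis KO 2 and tongue KO 3, leaving out both KO 2 libraries for the correlations, and the animal block for the difference between tissues. Coordinates are from GENCODE M21 (GRCm38) and promoters from RefSeq (GRCm38.p6).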

Additional observations from a re-analysis of the deposited data

Results flagged for a closer look

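Of 30 groups of 4 libraries tested, 5 had a library far from the other 3 by Dixon's criterion. Its chance rate of about 1 in 20 groups holds for independent, normally distributed values. The values here are unlogged CPM of genes that partly vary together, so the 5 of 30 cannot be set against that rate. Epidermis KO 2 was the far library in 4 of them: S100a8 stood at 8.79 CPM, S100a9 at 20.0 CPM, Il1a at 68.4 CPM and Il1b at 6.14 CPM, each the highest of the 4 knockout epidermis libraries. The fifth was Lcn2 in tongue KO 1, at 8.07 CPM against 3.50 to 3.98 CPM in the other 3 knockout tongues.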

How the results depend on the processing

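Values are log2 fold changes, KO over WT or epidermis over tongue, and the cause of each change was not tested. In KO against WT epidermis 0 of the 10 genes passed in every setting except A38x libraries alone, where 3 passed. There Krt6a stood at -1.04, Krt6b at -1.999, Krt17 at -0.93, S100a8 at -1.81 and S100a9 at -0.46. Blocked by A-number range, the same 5 stood at -0.49, -1.35, -0.24, -1.99 and -0.99, and without both libraries that stood apart at -0.47, -1.26, -0.52, -1.56 and -0.66. KO 2 is the only A34x library of epidermis. A38x alone, the range block and the last of these settings thus all take it out and are not separate evidence. The limma-voom values were -0.59 for Krt6b, -1.06 for S100a8, -0.31 for S100a9 and 0.18 for Lcn2. With the replicate block, which pairs KO and WT by number, Krt16 stood at 0.034, S100a8 at -0.41 and S100a9 at -0.0062. Scaled to basal keratin counts, Krt6b stood at -0.047, S100a8 at -0.39 and S100a9 at -0.054. Leaving out 1 library at a time gave -0.35 to 1.03 for Krt6a, -1.13 to 0.56 for Krt6b, -0.52 to 0.074 for Krt16, -0.22 to 0.54 for Krt17, -2.02 to 0.50 for S100a8, -1.06 to 0.72 for S100a9, -0.85 to 0.090 for Il1a, -0.38 to 0.10 for Il1rn and -2.29 to 2.06 for Lcn2. In tongue 0 passed in any setting run. Scaling to basal keratin counts there gave 0.10 for Krt6a, 0.11 for Krt16, 0.16 for Krt17 and 0.087 for S100a8, and leaving out 1 library gave -0.21 to 0.039 for Krt6a, -0.11 to 0.12 for Krt17, -1.11 to 0.20 for S100a8 and -0.70 to 0.081 for Il1a. Tongue libraries with 1 number correlated at 0.573, 0.118, -0.135 and 0.227, so the numbers do not pair them, and the replicate block left 0 of the 10 genes and 2 genes in all called.

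Between tissues in wild types 5 to 8 of the genes passed when 1 library was left out, with Lcn2 at -4.05 to 0.26. In knockouts S100a8 ran from -2.80 to 0.33, S100a9 from -1.61 to 0.35 and Krt6b from -0.44 to 1.35. Scaling to basal keratin counts gave -2.19 in knockouts and -2.24 in wild types for Krt6b, -1.92 and -1.64 for Krt16, and -1.50 and -1.47 for Krt17. Summed with Krt6a, Krt6b stood at -1.49 in knockouts and -1.99 in wild types. In knockouts Krt6b stood at -0.70 in A38x alone and at -0.62 without the libraries that stood apart. With the animal as a replicate block, which leaves 1 residual degree of freedom in wild types, S100a9 at -0.66 (edgeR adjusted p = 0.0240) and Lcn2 at -3.73 (adjusted p = 2.13e-12) passed there, and no other call changed. Blocked by range, S100a9 passed in wild types at -0.64 (adjusted p = 0.0317), and without the libraries that stood apart S100a8 at -3.12 and S100a9 at -1.87 passed in knockouts. Without both KO 2 libraries, r in epidermis was -0.18 for Il1a and Il1rn and -0.74 for Il1b and S100a8. Over all genes the number called in epidermis was 604 in A38x and 1 each by DESeq2, with the range block and in 1 fit of all libraries, against 0. In tongue it was 15 in A38x, 8 with basal keratin scaling and 4 by DESeq2, against 2. For the difference between tissues it was 19 in A38x and 1 by DESeq2, against 0. Lcn2 failed the count filter in epidermis in A38x and without KO 2. Depth limits Il1b most, with at most 11 reads in 14 of 15 libraries.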
